A study of Homo sapiens with 6 samples.

Results

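The Hippo pathway and its transcriptional output were examined through 37 genes in Huh7 cells, a human hepatoma line. Of these, 24 encode pathway components (kinases, their adaptors and regulators, the coactivators YAP1 and WWTR1, and their DNA-binding partners), and 13 are genes that YAP and TAZ are known to activate. All 37 were found among the 57905 Ensembl gene IDs of the deposited table. They were chosen by pathway role, from a list drawn up with the FPKM values of these libraries and their differences between the groups in view. The differences of these genes are therefore given as a description, without a p-value, and the counts of members are set beside the share of all genes and support nothing further.

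Cells of the siASGR1 group had been transfected 72 h earlier with an siRNA against ASGR1, the gene of the main chain of the liver's receptor for desialylated glycoproteins, and cells of the siControl group with a scrambled control siRNA. Each group had 3 libraries, numbered 1 to 3, and both came from the same line grown in serum-containing medium. The labels do not say whether the libraries came from separate cultures, so p-values measure library-to-library spread alone, and that spread may be technical. Expression is in FPKM, fragments scaled to exon length and library depth, a unit in which levels of different genes can be compared. Values are means ± SD of 3 libraries unless each library is given.

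In the Hippo pathway, the kinases MST1 and MST2 (genes STK4 and STK3), with the adaptor SAV1, activate the kinases LATS1 and LATS2, with their adaptors MOB1A and MOB1B. LATS kinases phosphorylate the coactivators YAP and TAZ (the product of WWTR1), which are then held in the cytoplasm or degraded. Unphosphorylated YAP and TAZ enter the nucleus and bind TEAD factors on DNA. In liver the pathway is known for its control of organ size and of tumour growth. Several target genes encode negative regulators of YAP and TAZ themselves, among them LATS2, AMOTL2 and PTPN14. Much of the pathway acts through phosphorylation, which RNA levels do not measure.

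The siRNA target was read first, and its value depended on the deposited source. In the table of the whole series ASGR1 was 4.60, 4.82 and 4.71 FPKM in siASGR1, against 17.54, 17.56 and 16.90 FPKM in siControl, which is 27.2% of siControl. In the single-library files it was 14.65, 15.81 and 14.04 FPKM in siASGR1, against the same siControl values, which is 85.6%. ASGR1 was the 1 gene that differed between the sources, and all values of the 37 genes were the same in both. The groups below are named by their labels. The libraries held 18492000 to 19242000 fragments in siASGR1 and 16304000 to 19322000 in siControl, as recovered from the steps of low FPKM values. All 9 hepatocyte markers examined were called higher in siASGR1 in the test described below, beside 20.9% of all tested genes. Their summed FPKM was 6807 to 6899 in siASGR1 and 3616 to 3760 in siControl. The largest part of the sum was AFP, with a mean of 3517.8 FPKM in siASGR1 and 2158.5 FPKM in siControl. ALB was 478 to 494 FPKM in siASGR1 and 318 to 339 FPKM in siControl.

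Genes were tested with limma where FPKM reached 1 in at least 3 of the 6 libraries, and were called at an adjusted p under 0.05. Differences were widespread: of 13568 genes tested, 61.3% were called, 20.9% higher and 40.4% lower in siASGR1, and the median log2 fold change was -0.13 on the log2(FPKM + 1) scale. Of the 37 members 34 were tested, and 7 were called higher and 22 lower. Their median was -0.28. The siASGR1 and siControl libraries did not overlap for 29 of the 34 (6 higher and 23 lower), beside 67.3% of all tested genes. AMOTL1, AXL and FJX1 were below the filter, and ANKRD1 passed it only through its siControl libraries. When FPKM were rescaled by median-of-ratios factors, which put the median log2 fold change of all genes at -0.0072, each tested member moved up; where that changed a call it is said below.

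Of 11 targets tested, 2 were called higher (18.2%) and 8 lower (72.7%), with a median log2 fold change of -0.79. Of all tested genes, 20.9% were higher and 40.4% lower. The 8 include ANKRD1, which passed the filter only through siControl. With median-of-ratios scaling 2 targets were higher and 7 lower (median -0.65), beside 4056 and 3921 of all 13568 tested genes. Of 23 components tested, 5 were higher (21.7%) and 14 lower (60.9%), with a median of -0.24. With median-of-ratios scaling 5 components were higher and 8 lower (median -0.10), beside the same 4056 and 3921 of all 13568 tested genes. Summed over all 13 targets, FPKM were 99.7 to 101.0 in siASGR1 and 208.0 to 211.3 in siControl. Summed over all 24 components they were 169.0 to 177.4 in siASGR1 and 212.0 to 214.2 in siControl. The difference between components and targets was not tested.

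**Figure D1:**
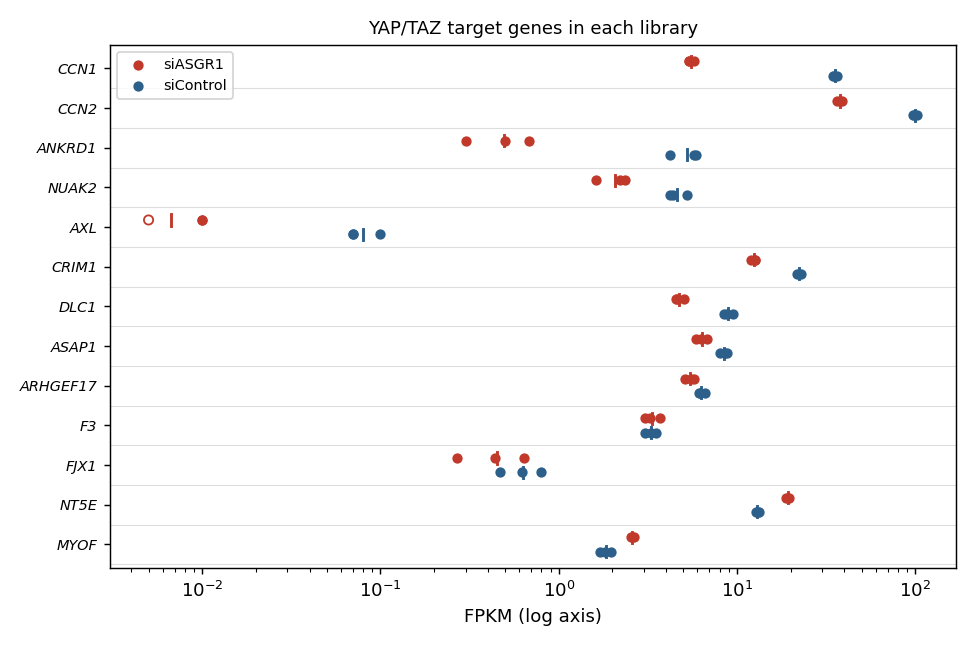
FPKM (log axis) of the 13 YAP/TAZ target genes in each library, siASGR1 above siControl in each row, with a short vertical bar at the group mean and an open circle for a library listed at 0, drawn at 0.005. CCN1, CCN2, ANKRD1, NUAK2, CRIM1 and DLC1 lay lower in all 3 siASGR1 libraries, NT5E and MYOF lay higher, and F3 overlapped.

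CCN1 and CCN2 encode secreted matricellular proteins and are the most widely used readouts of YAP and TAZ activity. CCN1 was 5.38, 5.36 and 5.73 FPKM in siASGR1, against 36.20, 35.15 and 34.70 FPKM in siControl. Its mean was thus 6.44-fold lower, with a log2 fold change of -2.49 (SE 0.04), the largest decrease among the tested members on the log2(FPKM + 1) scale. In mean FPKM the difference of ANKRD1, given below, was larger (10.7-fold). CCN2, the most abundant of the 37 genes, was 38.00, 38.77 and 36.37 FPKM in siASGR1, against 98.19, 102.33 and 97.36 FPKM in siControl. It was 2.63-fold lower in mean FPKM (log2 fold change -1.37, SE 0.04). The groups were far apart for both genes. Because CCN1 fell further, it made up 12.7 ± 0.78% of the summed CCN1 and CCN2 FPKM in siASGR1 and 26.3 ± 0.68% in siControl, a share that does not depend on any factor applied to a whole library.

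ANKRD1 encodes an ankyrin repeat protein of muscle and stressed cells and is another standard target. It was 0.68, 0.30 and 0.50 FPKM in siASGR1, against 5.85, 4.21 and 5.76 FPKM in siControl, a 10.7-fold difference of the means. On the log2(FPKM + 1) scale, which compresses low values, the fold change was -2.07. ANKRD1 passed the filter only through its siControl libraries, so its values are given without a test, although it is counted among the targets called lower. These values rest on about 11 to 25 reads per library in siASGR1 and 140 to 224 in siControl, the thinnest reads behind any tested member. NUAK2, a kinase of the AMPK family, was 1.62, 2.35 and 2.21 FPKM in siASGR1, against 4.36, 5.21 and 4.21 FPKM in siControl. It was 2.23-fold lower in mean FPKM, and its groups did not overlap.

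The 250 bases before the annotated start of CCN2, ANKRD1 and NUAK2 hold repeated copies of the core letters that TEAD factors bind, GGAATG. They are shown because these 3 targets, with CCN1, had the largest log2 decreases among the tested targets. The other ground is that no other of the 28 members with a promoter to read held more than 1 copy. Picked on both grounds, the printed promoters cannot show whether copies go with a decrease. AMOTL2, a component that is also a target, is shown for its single copy at 1 of its 2 listed starts, and NT5E, a target that was higher in siASGR1, for having none. The targets F3, MYOF and FJX1 also held none. Capitals mark GGAATG, or CATTCC where the letters lie on the other strand. Sequences are from RefSeq on GRCh38.p14, 5′ to 3′ on the gene's own strand: CCN2 at chr6:131951373-131951622 (minus), ANKRD1 at chr10:90921088-90921337 (minus), NUAK2 at chr1:205321746-205321995 (minus), AMOTL2 at chr3:134374448-134374697 (minus) and NT5E at chr6:85449833-85450082 (plus).
CCN2: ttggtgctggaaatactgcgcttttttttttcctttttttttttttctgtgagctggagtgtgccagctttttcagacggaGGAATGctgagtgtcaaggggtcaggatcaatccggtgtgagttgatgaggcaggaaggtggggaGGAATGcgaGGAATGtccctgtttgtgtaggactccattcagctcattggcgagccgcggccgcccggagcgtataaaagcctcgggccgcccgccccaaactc
ANKRD1: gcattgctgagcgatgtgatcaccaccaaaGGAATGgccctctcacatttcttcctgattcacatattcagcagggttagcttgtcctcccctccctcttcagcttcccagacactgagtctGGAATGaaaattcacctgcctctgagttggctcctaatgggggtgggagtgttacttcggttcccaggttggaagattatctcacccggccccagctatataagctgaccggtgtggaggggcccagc
NUAK2: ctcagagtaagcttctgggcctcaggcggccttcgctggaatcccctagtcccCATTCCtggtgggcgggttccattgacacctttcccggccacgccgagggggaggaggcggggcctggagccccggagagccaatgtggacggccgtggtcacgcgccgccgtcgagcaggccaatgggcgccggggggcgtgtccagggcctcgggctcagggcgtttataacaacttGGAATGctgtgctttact
AMOTL2: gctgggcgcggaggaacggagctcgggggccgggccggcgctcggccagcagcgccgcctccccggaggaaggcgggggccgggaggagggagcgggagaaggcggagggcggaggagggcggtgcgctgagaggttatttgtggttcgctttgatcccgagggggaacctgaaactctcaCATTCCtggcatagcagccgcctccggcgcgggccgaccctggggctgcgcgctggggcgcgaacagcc
NT5E: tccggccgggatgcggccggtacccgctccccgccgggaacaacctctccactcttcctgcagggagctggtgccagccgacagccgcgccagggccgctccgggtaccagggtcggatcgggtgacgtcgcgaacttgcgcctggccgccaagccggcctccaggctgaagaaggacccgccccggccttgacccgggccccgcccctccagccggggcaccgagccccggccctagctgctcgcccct

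In CCN2 the 3 copies began 169, 104 and 95 bases before the start, all on the gene's strand, and the last 2 were separated by 3 bases. In ANKRD1 they began 220 and 128 bases before it. In NUAK2 1 copy lay on each strand, 197 and 18 bases before it, and the AMOTL2 copy began 69 bases before that start. Among all 35116 promoters of this length in the same table, 11.9% held at least 1 copy on either strand, 0.94% at least 2 and 0.083% at least 3. The table held promoters for 28 of the 37 members, at 42 starts. A copy was found at a start of 4 of 8 target genes (CCN2, ANKRD1, NUAK2 and AXL) and of 4 of 20 components (YAP1, AMOTL2, AJUBA and PTPN14). Counted per start, as in the 11.9% of all promoters, a copy was at 44.4% of the 9 target starts and 12.1% of the 33 component starts, so the components lay near the background. Of the further YAP and TAZ targets read below, 14 had promoters, and a copy was at 25% of their 24 starts. Not every gene with a copy differed strongly: YAP1 was not called, and AJUBA had a log2 fold change of -0.23. The letters TGANTCA, which AP-1 factors bind, were found at a start of 2 targets (ANKRD1 and F3) and 2 components (LATS1 and MOB1B). They were at 6.57% of all promoters, a share per start that cannot be set directly beside these counts of genes. Neither set of letters contains the other, and a match is a description of the sequence, not a bound site. CCN1 was not among the promoters used here.

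Of the remaining targets, 4 were lower. CRIM1, a transmembrane regulator of growth factor processing, was 12.65, 11.92 and 12.58 FPKM in siASGR1, against 21.77, 22.14 and 22.75 FPKM in siControl. DLC1, a GTPase-activating protein and tumour suppressor, was 4.55, 4.59 and 5.02 FPKM in siASGR1, against 8.50, 8.76 and 9.50 FPKM in siControl. Their log2 fold changes were alike, -0.80 (SE 0.04) for CRIM1 and -0.79 (SE 0.06) for DLC1. ASAP1, an Arf GTPase-activating protein, was 6.33 ± 0.48 FPKM in siASGR1 and 8.44 ± 0.36 FPKM in siControl. ARHGEF17, a guanine nucleotide exchange factor, was 5.46 ± 0.33 FPKM in siASGR1 and 6.30 ± 0.25 FPKM in siControl (log2 fold change -0.18, SE 0.06). The call of ARHGEF17 was lost with each of the 3 rescalings (log2 fold change -0.11 to -0.03). It was also lost without siASGR1 replicate 2 or 3 or without siControl replicate 1 or 2 (-0.19 to -0.14).

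A pair of targets went the other way. NT5E, the cell-surface 5′-nucleotidase CD73 that makes adenosine, was 19.68, 19.30 and 18.83 FPKM in siASGR1, against 12.72, 13.11 and 13.25 FPKM in siControl (log2 fold change 0.53, SE 0.04). MYOF, a ferlin of membrane repair and vesicle traffic, was 2.54, 2.63 and 2.58 FPKM in siASGR1, against 1.97, 1.71 and 1.81 FPKM in siControl (log2 fold change 0.34, SE 0.07). Their groups did not overlap, and both calls held in every alternative in which the gene was tested. F3, tissue factor, was 3.24, 3.05 and 3.68 FPKM in siASGR1 and 3.04, 3.52 and 3.28 FPKM in siControl (log2 fold change 0.01, SE 0.08). The targets therefore did not move as 1 block: among the genes above 10 FPKM in siControl, CCN1, CCN2 and CRIM1 fell and NT5E rose.

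The last targets were barely expressed. FJX1, a secreted kinase of the Fat and Dachsous branch, was 0.64, 0.44 and 0.27 FPKM in siASGR1 and 0.62, 0.47 and 0.80 FPKM in siControl, which overlapped. AXL, a receptor tyrosine kinase, was 0.01, 0.01 and 0 FPKM in siASGR1, against 0.07, 0.07 and 0.10 FPKM in siControl, which is about 1, 1 and 0 reads against 7, 6 and 8. The floor of 3 reads for AXL in siASGR1 replicate 3 is 0.030 FPKM, and such limits cover counting error only. AXL is typical of mesenchymal cells, and some fibroblast markers, but not all, differed in the same direction. COL1A1 was 0.02 to 0.03 FPKM in siASGR1, against 2.05 to 2.77 FPKM in siControl, and DCN 0 to 0.02 against 0.19 to 0.26 FPKM. PDGFRA went the other way, at 10.39 to 11.47 FPKM in siASGR1 and 4.40 to 4.58 FPKM in siControl. PDGFRB and THY1 overlapped between the groups. Of the 10 fibroblast and stellate markers, 4 were tested (3 lower and PDGFRA higher), of which COL1A1 and COL1A2, both lower, passed the filter only through siControl, and 4 below the filter had non-overlapping lower values in siASGR1; none was at 0 in every library. Their summed FPKM, mostly VIM, was 41.5 to 42.9 in siASGR1 and 53.4 to 58.9 in siControl, and their part in the low values of AXL, ANKRD1 and AMOTL1 was not tested. The 5 endothelial markers matched summed to 0.25 to 0.38 FPKM in siASGR1 and 0.28 to 0.42 FPKM in siControl, with 2 at 0 in every library. In bulk RNA, fewer cells of a type and less RNA per cell cannot be told apart.

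**Figure D2:**
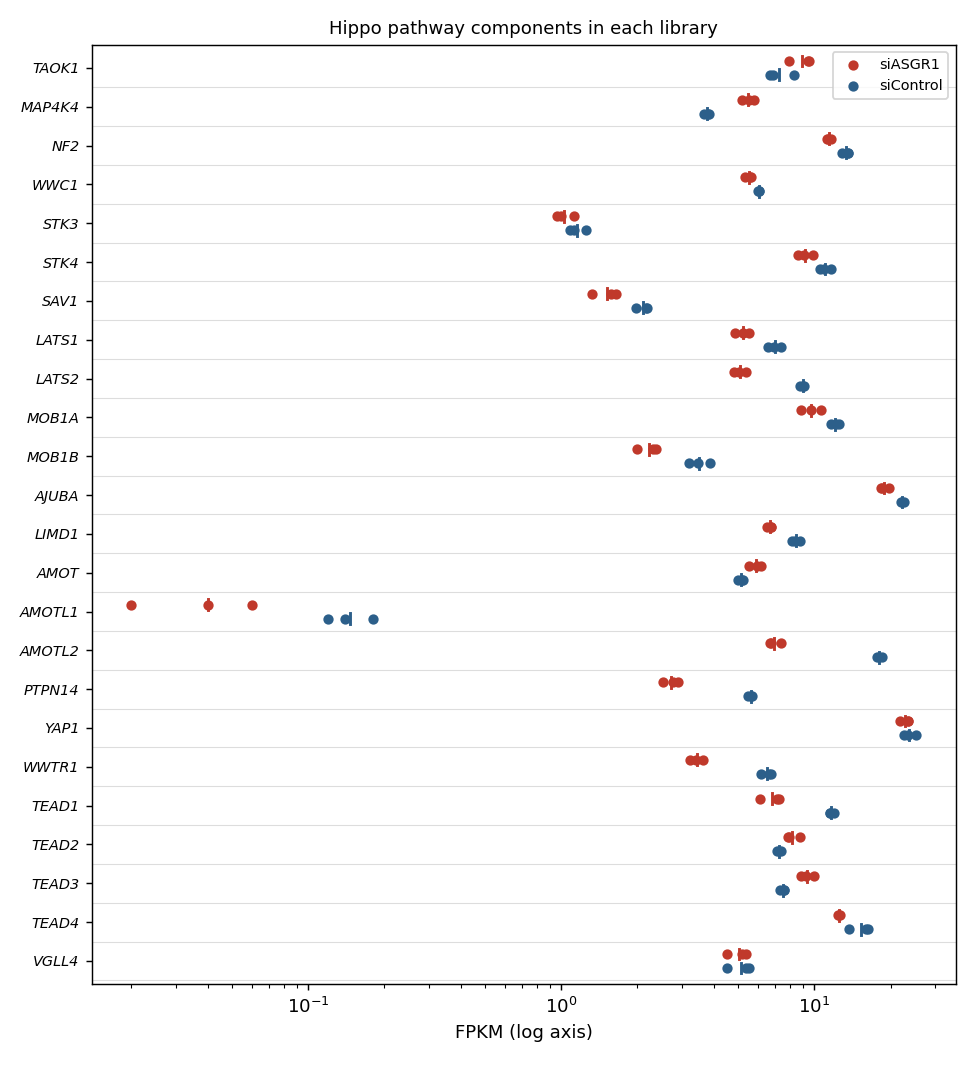
FPKM (log axis) of the 24 Hippo pathway components in each library, siASGR1 above siControl in each row, with a short vertical bar at the group mean. AMOTL2, PTPN14, WWTR1, LATS2 and TEAD1 were the most shifted of the tested components, all lower in siASGR1, whereas YAP1, STK3 and VGLL4 overlapped.

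Among the components, the coactivator pair split. YAP1 was 23.48, 21.71 and 23.42 FPKM in siASGR1 and 22.57, 23.36 and 25.27 FPKM in siControl, which overlapped (log2 fold change -0.05, SE 0.06; it turned positive, 0.0959 and 0.0236, with median-of-ratios and upper-quartile scaling). WWTR1, which encodes TAZ, was 3.41, 3.22 and 3.64 FPKM in siASGR1, against 6.17, 6.61 and 6.76 FPKM in siControl. The groups did not overlap for WWTR1, and its log2 fold change was -0.76 (SE 0.06). YAP1 was the more abundant in both groups and made up 87.0 ± 0.39% of the summed FPKM of the pair in siASGR1 and 78.5 ± 0.48% in siControl. The sum itself was 24.93 to 27.06 FPKM in siASGR1 and 28.74 to 32.03 FPKM in siControl.

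The TEAD genes, whose products recruit YAP and TAZ to DNA, went in both directions. TEAD1 was 7.26, 6.10 and 7.11 FPKM in siASGR1, against 11.52, 11.55 and 11.99 FPKM in siControl (1.71-fold lower). TEAD4, the most abundant, was 12.42, 12.50 and 12.59 FPKM in siASGR1, against 15.98, 16.32 and 13.72 FPKM in siControl, and its call was lost with median-of-ratios scaling (log2 fold change -0.13). TEAD3 was 10.00, 8.85 and 9.27 FPKM in siASGR1, against 7.62, 7.62 and 7.34 FPKM in siControl (1.25-fold higher). The makeup of the family therefore differed: TEAD1 supplied 18.5 ± 1.42% of summed TEAD FPKM in siASGR1 and 28.0 ± 1.59% in siControl, and TEAD3 25.4 ± 1.13% and 18.01 ± 0.22%. TEAD2 was 8.19 ± 0.50 FPKM in siASGR1 and 7.26 ± 0.12 FPKM in siControl (log2 fold change 0.15, SE 0.05). Its call was lost when any library but siASGR1 replicate 1 was left out (log2 fold change 0.11 to 0.17), and 10.7% of its exon bases are shared with CD37 on the opposite strand. VGLL4, which competes with YAP for TEADs, was 5.04 ± 0.46 FPKM in siASGR1 and 5.15 ± 0.55 FPKM in siControl. A fraction of 22.1% of VGLL4 exon bases is shared with ATG7 on the opposite strand, and the strand setting of the counts is not given in the sources used here.

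**Figure D3:**
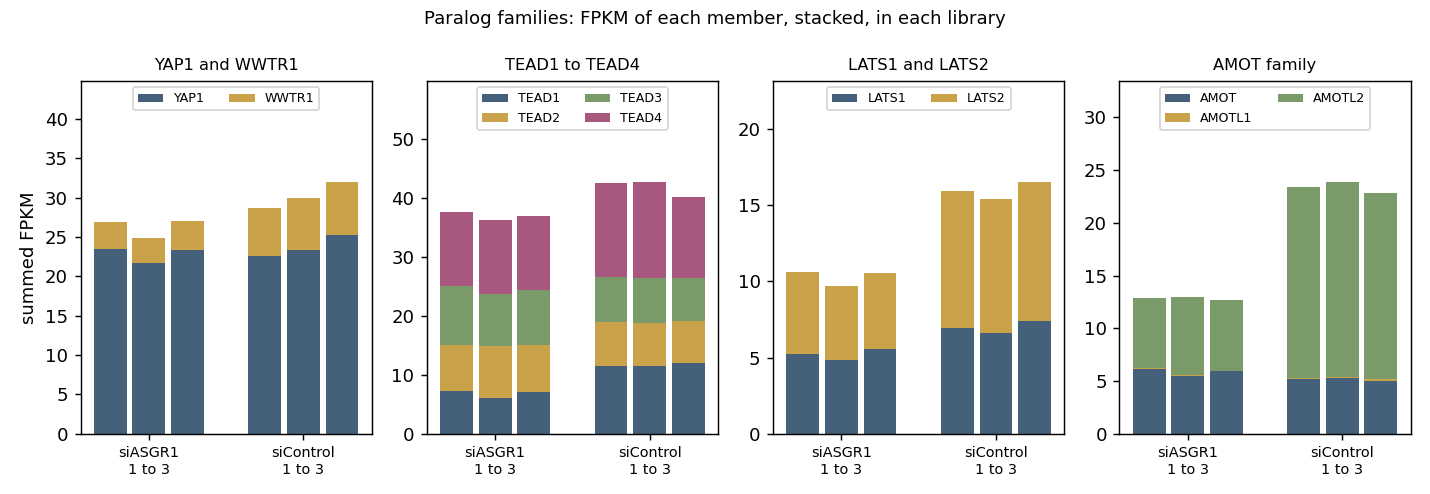
FPKM of each paralog, stacked, in each library, with siASGR1 replicates 1 to 3 left of siControl replicates 1 to 3, for the coactivators, the TEADs, the LATS kinases and the angiomotins. WWTR1, TEAD1, LATS2 and AMOTL2 took smaller shares in siASGR1, and the AMOT family showed the largest difference in height, 12.7 to 13.0 FPKM against 22.9 to 23.9.

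The core kinase cassette was lower or little different. LATS2, itself a YAP target, was 5.39, 4.82 and 5.03 FPKM in siASGR1, against 9.0, 8.81 and 9.14 FPKM in siControl (1.77-fold lower). LATS1 was 5.22, 4.86 and 5.53 FPKM in siASGR1, against 6.94, 6.58 and 7.38 FPKM in siControl (1.34-fold lower). The groups overlapped for neither gene. LATS2 made up 49.4 ± 1.62% of summed LATS FPKM in siASGR1 and 56.3 ± 0.96% in siControl. STK4 (MST1) was 9.19 ± 0.67 FPKM in siASGR1 and 11.04 ± 0.57 FPKM in siControl. STK3 (MST2), near the lower end of tested genes, was 1.03 ± 0.083 FPKM in siASGR1 and 1.15 ± 0.089 FPKM in siControl, which overlapped. The adaptor SAV1 was 1.51 ± 0.17 FPKM in siASGR1 and 2.11 ± 0.11 FPKM in siControl, with 14.9% of its exon bases shared with ATL1 on the opposite strand. MOB1A was 9.71 ± 0.89 FPKM in siASGR1 and 12.1 ± 0.43 FPKM in siControl, and MOB1B 2.22 ± 0.19 and 3.51 ± 0.33 FPKM. With median-of-ratios scaling the calls of STK4, SAV1 and MOB1A were lost (log2 fold changes -0.10, -0.21 and -0.15). STK4 also lost its call with upper-quartile (-0.17) and quantile scaling (-0.14), and SAV1 with quantile scaling (-0.0976), whereas the calls of LATS1, LATS2 and MOB1B held in every alternative in which they were tested.

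Upstream of the cassette, 2 kinases that can phosphorylate MST or LATS were higher. MAP4K4 was 5.54, 5.16 and 5.77 FPKM in siASGR1, against 3.84, 3.66 and 3.8 FPKM in siControl (log2 fold change 0.44, SE 0.06), the largest increase among the components. TAOK1 was 9.56, 7.92 and 9.42 FPKM in siASGR1 and 6.84, 6.70 and 8.28 FPKM in siControl. The TAOK1 groups overlapped, and its call was lost without siASGR1 replicate 1 or 3 or without siControl replicate 1 or 2 (log2 fold change 0.22 to 0.24). The scaffold NF2 (merlin), a tumour suppressor that brings LATS to the membrane, was 11.4 ± 0.24 FPKM in siASGR1 and 13.3 ± 0.43 FPKM in siControl, a call lost with median-of-ratios scaling (log2 fold change -0.07). WWC1 (KIBRA), its partner, was 5.51 ± 0.16 FPKM in siASGR1 and 6.03 ± 0.021 FPKM in siControl. WWC1 was not called although its groups did not overlap (log2 fold change -0.11, SE 0.05; 0.02 with median-of-ratios and 0.04 with quantile scaling).

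The angiomotins, junction proteins that hold YAP out of the nucleus, differed among themselves. AMOTL2, itself a YAP target, was 6.65, 7.41 and 6.76 FPKM in siASGR1, against 18.05, 18.52 and 17.66 FPKM in siControl. It was 2.60-fold lower in mean FPKM (log2 fold change -1.27, SE 0.05), close to CCN2 and the largest decrease among the tested components. AMOT was 6.13, 5.52 and 5.91 FPKM in siASGR1, against 5.17, 5.24 and 5.01 FPKM in siControl, a small increase (log2 fold change 0.16, SE 0.05). The call of AMOT was lost without siASGR1 replicate 1 or 3 or without any 1 siControl library (0.13 to 0.17). AMOTL2 supplied 54.1 ± 2.82% of the family's FPKM in siASGR1 and 77.4 ± 0.16% in siControl. AMOTL1 was listed at 0.06, 0.02 and 0.04 FPKM in siASGR1, against 0.14, 0.12 and 0.18 FPKM in siControl, below the filter.

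PTPN14, a phosphatase that binds YAP and is induced by it, was 2.76, 2.52 and 2.88 FPKM in siASGR1, against 5.48, 5.67 and 5.63 FPKM in siControl (2.06-fold lower). The LIM proteins AJUBA and LIMD1, which inhibit LATS kinases, were lower by less. AJUBA was 18.8 ± 0.75 FPKM in siASGR1 and 22.3 ± 0.36 FPKM in siControl, and its call was lost with median-of-ratios scaling (log2 fold change -0.08). LIMD1 was 6.65 ± 0.13 FPKM in siASGR1 and 8.44 ± 0.32 FPKM in siControl, a call that held in every alternative in which it was tested. LATS2, AMOTL2 and PTPN14, named above as known targets, were among the 5 with the largest decreases of the 23 components tested, together with WWTR1 and TEAD1. Whether further components are also targets was not examined. This grouping was made after the values were seen.

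**Figure D4:**
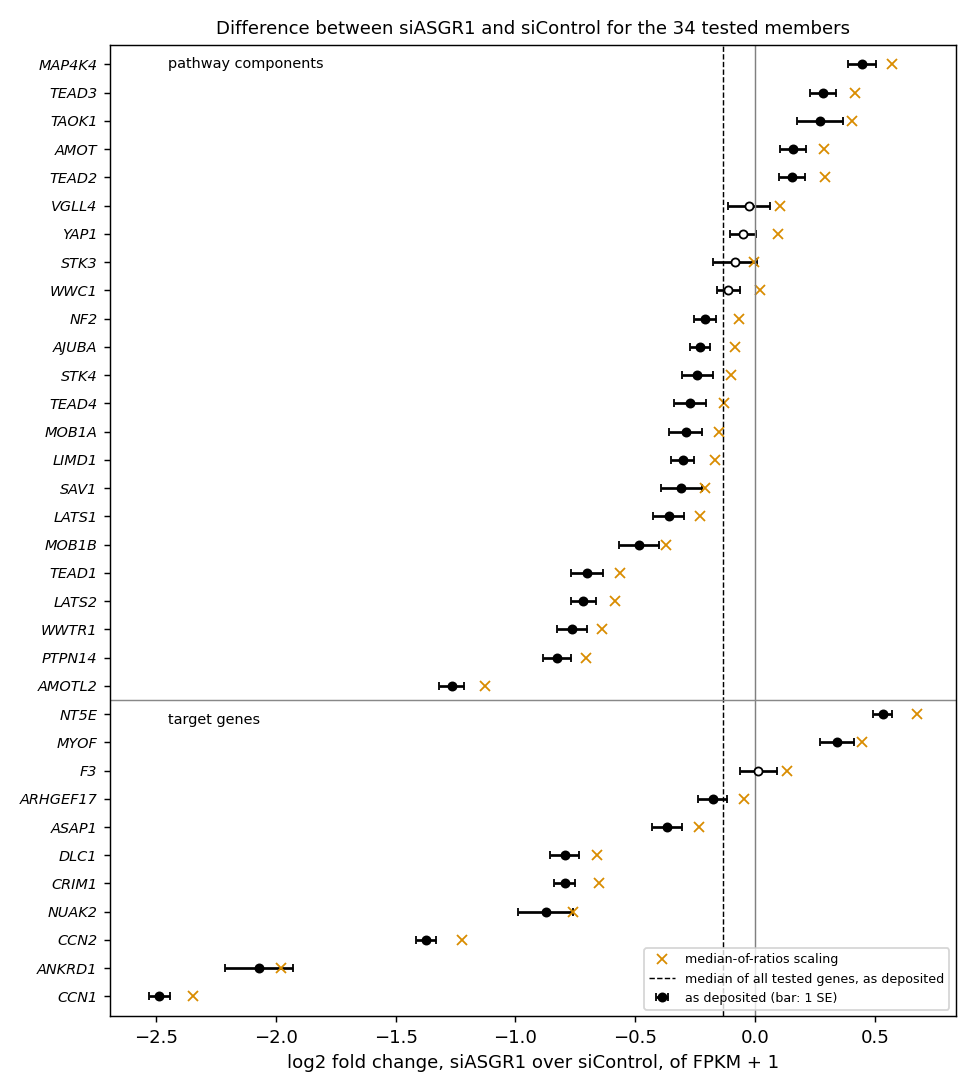
Log2 fold change of FPKM + 1, siASGR1 over siControl, of the 34 tested members, components above targets, each ordered by size. Points are values as deposited with bars of 1 SE (filled where called, open where not), crosses are values with median-of-ratios scaling and the dashed line is the median of all tested genes, -0.13. CCN1, ANKRD1, CCN2 and AMOTL2 lay below -1 under either scaling, and only MAP4K4, TEAD3, TAOK1, AMOT, TEAD2, NT5E and MYOF were called higher. ANKRD1 passed the filter only through its siControl libraries.

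Genes outside the 37 were read from wider lists. These lists too were chosen with earlier results known, and their called genes are named by smallest adjusted p. The values of those called genes are therefore a description, given without a p-value. Of 53 other Hippo network genes, 41 were tested, and 4 rose and 23 fell (median log2 fold change -0.17). The share called, 65.9%, was near the 61.3% of all tested genes. By direction, 9.8% rose and 56.1% fell, beside 20.9% and 40.4% of all tested genes. With median-of-ratios scaling 8 of the 41 rose and 12 fell, beside 4056 and 3921 of all 13568 tested genes. DCHS1, a protocadherin ligand of FAT4, was 0.61, 0.62 and 0.61 FPKM in siASGR1, against 4.62, 5.13 and 4.01 FPKM in siControl. It passed the filter only through siControl, so its values are given without a test, although it is counted in the 23 that fell. WWC2, a paralog of KIBRA, fell to 3.21 ± 0.28 FPKM in siASGR1, against 5.78 ± 0.083 FPKM in siControl (log2 fold change -0.69). MAP4K2, a kinase related to MAP4K4 that was higher, fell to 5.94 ± 0.24 FPKM in siASGR1, against 9.76 ± 0.64 FPKM in siControl (log2 fold change -0.63). RASSF1, a scaffold of MST kinases, and SIKE1, a subunit of the STRIPAK phosphatase complex, were 1.51-fold and 1.78-fold lower. STK26, a kinase of the MST family, was 25.2 ± 1.72 FPKM in siASGR1 and 22.8 ± 1.85 FPKM in siControl (adjusted p = 0.13). It was called higher under 2 rescalings, with limma adjusted p = 0.00829 (median-of-ratios) and 0.0361 (upper-quartile), and without siControl replicate 3 (log2 fold change 0.20, adjusted p = 0.0319). Over all alternatives its adjusted p ran from 0.00829 to 0.345.

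Of 24 further genes that YAP and TAZ are known to induce, 15 were tested, and 2 rose and 8 fell (median log2 fold change -0.16). These are 13.3% and 53.3% of those tested, beside 20.9% and 40.4% of all tested genes. With median-of-ratios scaling 4 rose and 6 fell, beside 4056 and 3921 of all 13568 tested genes. In the fit reported, 2 of the 15 passed the filter only through siControl, both among the 8 that fell. THBS1, which encodes thrombospondin, was 0.92, 0.95 and 0.95 FPKM in siASGR1, against 2.88, 2.84 and 2.87 FPKM in siControl, and is 1 of these 2, so it too is given without a test. BMP4, a secreted morphogen, fell to 4.89 ± 0.14 FPKM in siASGR1, against 11.2 ± 0.57 FPKM in siControl (log2 fold change -1.05). GADD45A, a stress-response gene, was 2.01-fold lower, and the cell cycle gene CCND1 1.48-fold lower. ETV5, an ETS factor, was 1.25-fold lower. MYC was 10.4 ± 0.46 FPKM in siASGR1 and 11.1 ± 0.71 FPKM in siControl (adjusted p = 0.263). Other pathways also control these genes, and in the fit reported their median lay near that of all genes. The distance varied among the alternatives. The medians were -0.28 beside -0.16 with a pseudocount of 0.1 and -0.30 beside -0.09 with FPKM of at least 5. Without siControl replicate 2 they were -0.128 beside -0.135.

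CCN1 and CCN2 also answer to serum response factor with its MRTF coactivators and to AP-1, and those genes were read beside them. Of 18 SRF/MRTF target genes 13 were tested, and 2 rose and 9 fell. These are 15.4% and 69.2%, beside 20.9% and 40.4% of all tested genes, and the median log2 fold change was -0.26. With median-of-ratios scaling 3 rose and 6 fell, beside 4056 and 3921 of all 13568 tested genes. FILIP1L and TAGLN, an actin-binding protein of smooth muscle, were 2.06-fold and 2.51-fold lower, and TPM1, a tropomyosin, 1.62-fold lower. TPM2 rose 1.78-fold. The cytoplasmic actins went opposite ways, ACTB 1.68-fold higher and ACTG1 1.46-fold lower. They are near-identical in coding sequence, and whether reads were split between them was not tested. CNN2, a calponin, was 60.1 ± 1.34 FPKM in siASGR1 and 56.97 ± 0.17 FPKM in siControl (adjusted p = 0.0937), and was called higher under 2 rescalings, at 0.00145 (median-of-ratios) and 0.0083 (upper-quartile). Over all alternatives its adjusted p ran from 0.00145 to 0.717.

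Of 8 AP-1 genes 5 were tested, and 4 fell, in a list too short to set against the 40.4% of all tested genes called lower. This count was added after the data were seen. The fifth, JUNB, was 15.1 ± 0.92 FPKM in siASGR1 and 16.1 ± 1.29 FPKM in siControl (adjusted p = 0.325). JUN was 31.58, 35.16 and 34.10 FPKM in siASGR1, against 102.89, 98.09 and 102.16 FPKM in siControl (3.01-fold lower in mean FPKM). JUND was 1.85-fold, FOSL2 2.11-fold and ATF3 4.58-fold lower. These 4 calls held under every scaling tried. Whether the differences of JUN and of the CCN genes are linked was not tested.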

How the data were processed

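RNA of 6 Huh7 libraries was sequenced after TruSeq preparation, per the labels' protocols. The authors deposited FPKM rounded to 2 decimals, as a joint table and as separate files for the libraries. The table's name speaks of raw counts, but per the file headers its columns are FPKM, so limma took the place of a count test. Per the submitters' processing notes, HISAT2 2.0.1 was used with hg19, beside cutadapt 1.9.1 and bcl2fastq 2.17.1.14. Which program counted reads, with which strand setting and annotation, is not given in the sources used here. Analyses read the joint table.

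Genes reaching FPKM 1 in 3 or more libraries were tested by limma 3.58.1 in R 4.3.3 on log2(FPKM + 1), two-sided, with the group as the only term, an empirical Bayes prior that follows expression level, and Benjamini-Hochberg adjustment over all 13568 genes. Fold changes on that scale understate changes of low genes. The script was checked on simulated reads. Depth was recovered as the number of fragments that makes low FPKM (up to 20 reads in genes with exons of at most 1000 bases, GENCODE v29) whole reads within 0.1 read, which 96.5% to 96.9% were, against a median of 11.5% to 12.7% over the other depths tried. Alternatives covered scaling, pseudocount, filter, variance prior, a replicate block, the single-library files, a stricter threshold and leaving out each library.

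The members and lists were chosen with earlier results of these data known. Text names all 37 members, ASGR1 and, of each wider list, up to 6 called genes with the smallest adjusted p and the most abundant gene not called, except that some of these are not reported here; of these wider lists, RASSF5 was not matched to an ID. Marker genes and promoters to print were picked as examples. Overlaps of exons are from GENCODE v29 on GRCh38, and those above 10% of a member's exon bases are given. Plots used matplotlib 3.10.9, and tables pandas 2.3.3 and numpy 2.4.6 under Python 3.11.15.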

Additional observations from a re-analysis of the deposited data

How the results depend on the processing

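Of 503 values of the 34 tested members under the alternatives, 451 kept their direction and their side of the threshold, 39 lost a call and 13 changed sign. For 19 members this held under every alternative in which they were tested: WWTR1, TEAD1, TEAD3, LATS1, LATS2, MOB1B, AMOTL2, LIMD1, MAP4K4 and PTPN14 among components, and all called targets except ARHGEF17. Of these targets, ANKRD1 passed the filter only through its siControl libraries. The changes of sign were in genes that were not called: YAP1 (0.0959 with median-of-ratios, 0.0236 with upper-quartile scaling), STK3 (0.147 with quantile normalization), WWC1 (0.0176 with median-of-ratios, 0.0397 with quantile) and VGLL4 (0.102, 0.039 and 0.137 with the 3 rescalings). Leaving out a library also turned VGLL4 and F3, which ran from -0.1016 to 0.03745 and from -0.0451 to 0.05919. Of genes outside the members, MYC turned to 0.0586 (median-of-ratios) and 0.0047 (quantile) and JUNB to 0.0594 (median-of-ratios). The cause of each was not tested.

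Counts moved by over 1.5 times as follows. Components called higher, 5 in the fit reported, numbered 2 with no filter, 3 with no trend in the prior, 3 with the replicate block, 2 at an adjusted p under 0.01 and 2 to 4 without 1 library. Components called lower, 14, numbered 8 with median-of-ratios scaling. Targets called higher, 2, numbered 1 with FPKM of at least 5, since MYOF was then not tested. Other Hippo network genes called higher, 4, numbered 8 with median-of-ratios and 7 with upper-quartile scaling. Those called lower, 23, numbered 12, 14 and 13 with median-of-ratios, upper-quartile and quantile scaling and 12 at an adjusted p under 0.01. Other targets called higher, 2, numbered 4 with each of these rescalings. All genes called lower, 5480, numbered 3382 with FPKM of at least 5, where fewer genes are tested; with median-of-ratios scaling 4056 were higher and 3921 lower. With the replicate block TEAD2, AMOT and ARHGEF17 lost their calls and STK26 gained one (adjusted p = 0.0488), but same-numbered libraries share only a number: their deviations correlated at -0.0189, 0.0021 and 0.0125 across genes, and no library correlated best with its own number. The single-library files changed no call of a member. Depth limits AXL, AMOTL1 and FJX1, which rest on at most 32 reads per library.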
